A study of Mus musculus with 8 samples.

Results

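The mesenchymal identity transcription factors examined here are 10 genes that give connective tissue cells their position and lineage: the orphan nuclear receptors Nr2f1 and Nr2f2, the T-box factors Tbx2, Tbx3, Tbx15 and Tbx18, the basic helix-loop-helix (bHLH) factors Tcf21, Twist1 and Twist2, and the paired-related homeobox factor Prrx1. They were chosen by gene symbol, with their measured counts in all 3 groups of the study already known. Of the 10, 9 were among the 12160 genes of the table and Tcf21 was not a row of it. Because the levels in the 3 groups helped to choose the members, their levels and fold changes are given below as a description, without p-values, while genes of the same families and partner genes are given with their test over all genes. Those lists too were drawn up with earlier results of these data known, so they are no independent evidence of a direction.

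The cells were immortalized mouse pancreatic stellate cells (PSCs), the fibroblast-like cells of the pancreas, as a single line grown in Matrigel. The seeded cells were kept in growth medium (DMEM plus serum) for 4 days and then exposed to 1 of 3 media for a further 4 days. The first group, shBrca2-CM (3 samples), received medium conditioned by KPC organoids, a mouse pancreatic cancer culture, carrying an shRNA against Brca2. The second, shControl-CM (3 samples), received medium from KPC organoids with a non-targeting shRNA. The third, control medium (2 samples), is named DMEM in the sample titles and PSC own conditioned medium in the recorded treatment. The study calls it growth medium (DMEM) in its results and the cells' own conditioned medium in its methods. According to the methods, organoid medium was collected in DMEM with less serum than the growth medium, so cancer cell products and serum cannot be told apart in a comparison with control medium if that was growth medium. All PSCs carried the same genotype, since only the organoids were infected with shRNA. The study describes the samples of a group as independent Matrigel domes of this line, and the p-values measure the spread between such domes.

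Nr2f1 and Nr2f2, also known as COUP-TFI and COUP-TFII, are nuclear receptors without an established natural ligand that act mostly as repressors and pattern the mesenchyme of many organs. T-box factors bind DNA through the T-box domain. Tbx2 and Tbx3 are close relatives that repress cell cycle inhibitors, whereas Tbx15 and Tbx18 pattern skeletal, skin and mural mesenchyme. Twist1 and Twist2 bind the E-box as dimers with E proteins, a step that the Id proteins block by occupying E proteins, and both are known as drivers of epithelial-mesenchymal transition. Prrx1 is a homeobox factor of limb and craniofacial mesenchyme that is also used as a marker of fibroblasts.

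Of the pairs of close relatives among the members, 2 with more counts than the T-box pairs within each library, Nr2f1 with Nr2f2 and Twist1 with Twist2, are shown by the 250 bases before their annotated start (RefSeq, GRCm38.p6), as the sequence next to the start of each gene. Nr2f1 lies at chr13:78188971-78198873 and Nr2f2 at chr7:70351946-70366746, both on the minus strand. Twist1 lies at chr12:33957671-33959831 and Twist2 at chr1:91801461-91848034, both on the plus strand. Each window is written 5′ to 3′ on the strand of its gene, and capitals mark a match to the E-box, the GC box or the TATA box.
Nr2f1, chr13:78198874-78199123, minus strand: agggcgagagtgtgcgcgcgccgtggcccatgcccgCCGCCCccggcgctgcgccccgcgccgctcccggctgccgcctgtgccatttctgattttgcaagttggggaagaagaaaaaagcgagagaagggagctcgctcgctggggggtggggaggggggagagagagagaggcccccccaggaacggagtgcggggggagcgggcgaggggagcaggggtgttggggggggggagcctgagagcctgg
Nr2f2, chr7:70366747-70366996, minus strand: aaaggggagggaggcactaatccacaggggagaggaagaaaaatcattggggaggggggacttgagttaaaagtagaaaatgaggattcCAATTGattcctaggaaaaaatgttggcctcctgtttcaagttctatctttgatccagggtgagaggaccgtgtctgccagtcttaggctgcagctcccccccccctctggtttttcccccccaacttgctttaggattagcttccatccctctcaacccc
Twist1, chr12:33957421-33957670, plus strand: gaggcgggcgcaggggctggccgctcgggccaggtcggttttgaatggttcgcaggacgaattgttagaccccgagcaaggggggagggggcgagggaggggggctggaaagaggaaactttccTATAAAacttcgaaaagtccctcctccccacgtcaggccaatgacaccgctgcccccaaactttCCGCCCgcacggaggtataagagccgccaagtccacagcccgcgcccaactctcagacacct
Twist2, chr1:91801211-91801460, plus strand: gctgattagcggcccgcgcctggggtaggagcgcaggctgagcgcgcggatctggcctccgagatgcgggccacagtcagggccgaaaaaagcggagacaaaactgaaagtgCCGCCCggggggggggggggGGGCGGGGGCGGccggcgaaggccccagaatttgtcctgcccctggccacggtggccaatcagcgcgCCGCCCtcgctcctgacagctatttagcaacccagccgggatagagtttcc
Windows upstream of 32851 starts were searched on both strands for 8 short motifs. The E-box CANNTG, bound by bHLH factors, was held by 66.2% of all windows, the GC box GGGCGG by 32.7% and the TATA box TATAAA by 12.4%. The T-box hexamer GGTGTG was held by 16.3%, the nuclear receptor hexamer AGGTCA by 14.0%, the AP-1 site TGANTCA by 6.75%, the STAT site TTCNNNGAA by 7.02% and the heat shock element core GAANNTTC by 6.69%. The Nr2f1 window held 1 GC box and the Nr2f2 window 1 E-box. The Twist1 window held 1 GC box and 1 TATA box, and the Twist2 window held 4 GC boxes, 2 of them side by side. None of these 4 windows matched the last 5 motifs. G and C made up 72% of the Nr2f1 window against 50% of the Nr2f2 window, and 62.4% of the Twist1 window against 68.8% of the Twist2 window, with a median of 52.4% over all windows. A match or its absence is a description of these letters only. The other members lie, in the same build, at chr11:85832615-85841948 (Tbx2), chr5:119670534-119684724 (Tbx3), chr3:99240348-99354260 (Tbx15), chr9:87702800-87731260 (Tbx18), chr10:22817263-22820143 (Tcf21) and chr1:163245119-163315145 (Prrx1).

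RNA was measured as counts of 3′ end reads per gene. The totals lay between 655996 and 1624392 in the 6 conditioned medium libraries and were 4623846 and 5476988 with control medium, and the 9 members took 0.0478% to 0.0712% of them. Levels are given as CPM, counts scaled to a common library size, on the TMM scale, which corrects totals for the makeup of each library, and 3 counts corresponded to 4.57 CPM of the total in the shallowest library and 0.548 in the deepest. Libraries of the shControl-CM group differed more among themselves (chi-square per degree of freedom 2.99 to 8.35) than those of the shBrca2-CM group (1.65 to 1.94), on a measure that also grows with depth and was 6.64 for the control medium pair. In bulk RNA, fewer cells that express a gene and less RNA per cell cannot be told apart. All 11 fibroblast and stellate markers were in the table, with summed levels in CPM between 3233 and 3406 for shBrca2-CM, between 4211 and 4754 for shControl-CM and between 5452 and 6515 for control medium. Within this sum genes went both ways: with shControl-CM against control medium Dcn (22.7-fold) and Pdpn (8.68-fold) were called higher, and Vim (10.4-fold) and Col1a2 (5.59-fold) lower. Between shBrca2-CM and shControl-CM Dcn (-0.93 on the log2 scale), Pdpn (-1.07) and Lum (-1.59) were called lower and Pdgfra (0.85) higher. Markers of other cells were few: 3 of 8 epithelial markers were in the table (59.3 to 94.1, 57.7 to 70.6 and 37.0 to 41.7 CPM in the same order), and 2 of 6 immune markers (13.0 to 23.1, 16.7 to 22.4 and 7.52 to 9.04 CPM), and of 5 acinar markers Cela1 alone (54.8 to 83.9, 59.9 to 63.4 and 45.8 to 49.7 CPM), while Epcam, Cdh1 and Ptprc were not rows. Of the epithelial markers, Krt19 was 4.33-fold higher with shBrca2-CM than with shControl-CM (adjusted p = 0.0632 by edgeR) and 9.06-fold lower with shControl-CM than with control medium. The other epithelial markers in the table, Krt18 (5.37-fold) and Muc1 (3.91-fold), were called higher with shControl-CM than with control medium and were not called between the conditioned media (0.26 and 0.12 on the log2 scale). The mural marker Acta2, which encodes the smooth muscle actin of myofibroblasts, had 3 counts or fewer in each of the 6 conditioned medium libraries and 170 and 107 with control medium. The part of these markers in the results was not tested.

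Nr2f1 was the member with the clearest separation of all 3 media. Its level was 302, 304 and 252 CPM with shBrca2-CM, 87.8, 85.0 and 91.0 with shControl-CM, and 186 and 184 in control medium. The 3 groups did not overlap: shBrca2-CM was highest, control medium lay between and shControl-CM was lowest. The fitted log2 fold change was 1.72 (SE 0.14) between shBrca2-CM and shControl-CM, a 3.30-fold higher level. Against control medium it was -1.08 (SE 0.15) with shControl-CM, 2.11-fold lower, and 0.62 (SE 0.15) with shBrca2-CM, 1.54-fold higher. These rest on 359 counts with shControl-CM, 737 with shBrca2-CM and 1927 with control medium. With any single library left out, the log2 fold change of Nr2f1 ran from 1.68 to 1.82 between the conditioned media. Against control medium the range was -1.10 to -1.06 with shControl-CM and 0.58 to 0.71 with shBrca2-CM.

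Its paralogue Nr2f2 was less abundant and did not separate the conditioned media. Nr2f2 stood at 18.8, 29.9 and 17.8 CPM with shBrca2-CM, at 17.9, 21.3 and 23.8 with shControl-CM and at 37.7 and 33.7 with control medium. Both conditioned media lay below control medium without overlap, and they overlapped each other. The log2 fold change was 0.095 (SE 0.30) between the conditioned media, -0.78 (SE 0.24) for shControl-CM against control medium and -0.71 (SE 0.24) for shBrca2-CM against control medium. For the first, an approximate 95% interval ran from -0.50 to 0.68. It was taken from the SE as for a normal distribution, which is too narrow for so few libraries. Nr2f1 thus made up 92.9% ± 1.62 (SD, n = 3) of the counts of both genes with shBrca2-CM, 80.8% ± 1.99 (n = 3) with shControl-CM and 83.8% ± 0.994 (n = 2) with control medium. By library these shares were 94.1%, 91.0% and 93.4% with shBrca2-CM, against 83.0%, 80.0% and 79.3% with shControl-CM, and the 95% Wilson intervals of the first 3, which cover counting error only, reached down to 87.0% while those of the last 3 reached up to 88.0%. The lower call of Nr2f2 fell outside the thresholds without either control medium library in the shControl-CM comparison (-0.68 without the first and -0.86 without the second) and without the third shBrca2-CM library in the other (-0.54).

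**Figure D1:**
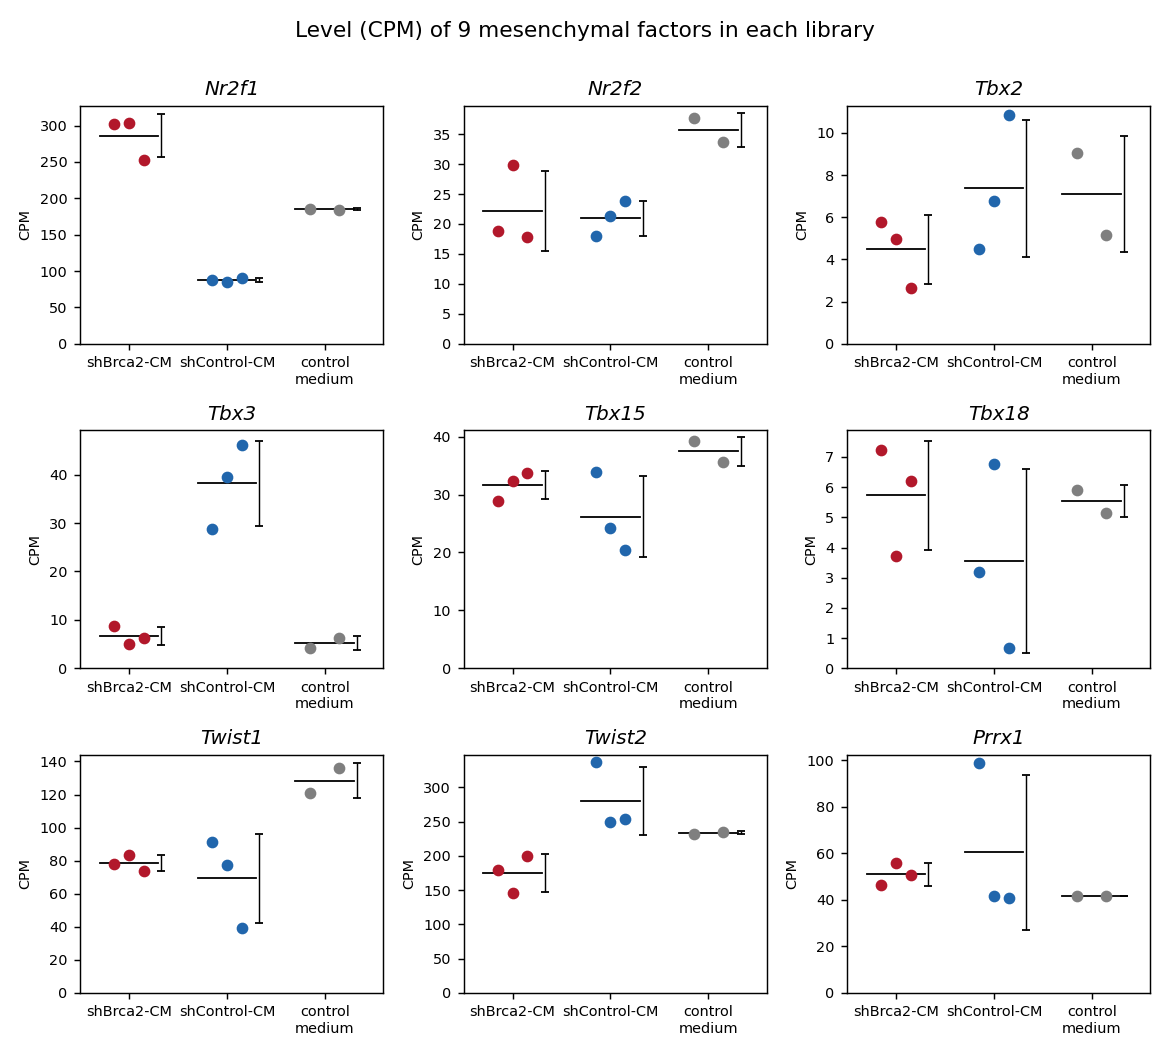
Level of the 9 measured factors in each library, in CPM on a linear axis from 0, with 1 panel a gene and its own scale. Points are libraries (3 shBrca2-CM, 3 shControl-CM, 2 control medium), lines are group means and bars are the SD. Nr2f1 separates all 3 media, Tbx3 is raised in the 3 shControl-CM libraries and 1 shControl-CM library carries the high mean of Prrx1 with 98.7 CPM.

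Among the T-box factors, Tbx3 had the largest fold changes of all members in both comparisons that include shControl-CM. Its level was 28.8, 39.6 and 46.2 CPM in the shControl-CM libraries, against 8.68, 4.98 and 6.21 with shBrca2-CM and 4.17 and 6.23 with control medium. Every shControl-CM library lay above every library of the other groups, which overlapped each other. The counts behind these levels were low outside shControl-CM, with 6, 4 and 7 counts with shBrca2-CM against 45, 41 and 68. The log2 fold change was -2.50 (SE 0.34) for shBrca2-CM against shControl-CM, 5.67-fold lower, 2.87 (SE 0.33) for shControl-CM against control medium, 7.30-fold higher, and 0.34 (SE 0.46) for shBrca2-CM against control medium. Left-out libraries moved the first from -2.70 to -2.34 and the second from 2.61 to 3.17.

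Tbx2, the paralogue of Tbx3, was close to the limit of detection with shBrca2-CM, at 4, 4 and 3 counts. It had 7, 7 and 16 counts with shControl-CM and 52 and 24 with control medium. It stood at 5.79, 4.98 and 2.66 CPM with shBrca2-CM, at 4.48, 6.76 and 10.9 with shControl-CM and at 9.04 and 5.16 with control medium. All groups overlapped, and the log2 fold changes of -0.75 (SE 0.55), 0.032 (SE 0.45) and -0.77 (SE 0.49) were within 2 SE of 0. The last of these passed the thresholds at -1.08 without the second control medium library. Tbx2 made up 13.5%, 14.6% and 19.0% of the counts of the pair with shControl-CM, against 40%, 50% and 30% with shBrca2-CM and 68.4% and 45.3% with control medium, on 8 to 10 counts of the pair in each shBrca2-CM library.

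Tbx15 and Tbx18 showed no called difference at full depth. Tbx15 stood at 28.9, 32.4 and 33.7 CPM with shBrca2-CM, at 34.0, 24.2 and 20.4 with shControl-CM and at 39.3 and 35.7 with control medium. Each conditioned medium lay below control medium without overlap, by -0.52 (SE 0.26) with shControl-CM and -0.23 (SE 0.22) with shBrca2-CM on the log2 scale, and the conditioned media overlapped (0.30, SE 0.27). Without the first shControl-CM library the difference from control medium was -0.77 and passed the thresholds, as it did at -1.12 with all libraries thinned to the smallest total. Tbx18 had 1 to 7 counts in the 6 conditioned medium libraries, with 7.23, 3.73 and 6.21 CPM with shBrca2-CM, 3.20, 6.76 and 0.68 with shControl-CM and 5.91 and 5.16 with control medium. Its groups overlapped in each comparison, with log2 fold changes of 0.80 (SE 0.70), -0.77 (SE 0.60) and 0.043 (SE 0.46), each within 2 SE of 0.

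The bHLH factors Twist1 and Twist2 differed from each other in their position relative to control medium with shControl-CM, below it for Twist1 and above it for Twist2. Twist1 stood at 78.1, 83.4 and 73.7 CPM with shBrca2-CM, at 91.0, 77.3 and 39.4 with shControl-CM and at 121 and 136 with control medium. Control medium lay above all 6 conditioned medium libraries, and the conditioned media overlapped. The log2 fold change was -0.90 (SE 0.28) for shControl-CM and -0.71 (SE 0.16) for shBrca2-CM against control medium, and 0.20 (SE 0.26) between the conditioned media. The shControl-CM difference fell outside the thresholds without the first (-0.96) or the second (-0.81) control medium library, and the difference between conditioned media was -0.11 without the third shControl-CM library.

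Twist2, 1 of the 2 most abundant members in every group, stood at 179, 146 and 200 CPM with shBrca2-CM, at 338, 249 and 254 with shControl-CM and at 232 and 235 with control medium. No 2 groups overlapped: shBrca2-CM was lowest and shControl-CM highest, the reverse of the order for Nr2f1. The log2 fold change was -0.65 (SE 0.17) for shBrca2-CM against shControl-CM, 1.57-fold lower, 0.26 (SE 0.18) for shControl-CM against control medium and -0.41 (SE 0.15) for shBrca2-CM against control medium. The first was past the thresholds, but not without any of the 3 shBrca2-CM libraries (-0.67, -0.54 and -0.76), nor without the second shControl-CM library (-0.74). The third passed them at -0.53 without the third shBrca2-CM library. Twist1 made up 30.3%, 36.4% and 26.9% of the counts of the pair with shBrca2-CM, 21.2%, 23.7% and 13.4% with shControl-CM, and 34.2% and 36.6% with control medium, so that every shControl-CM library held the smaller share.

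**Figure D2:**
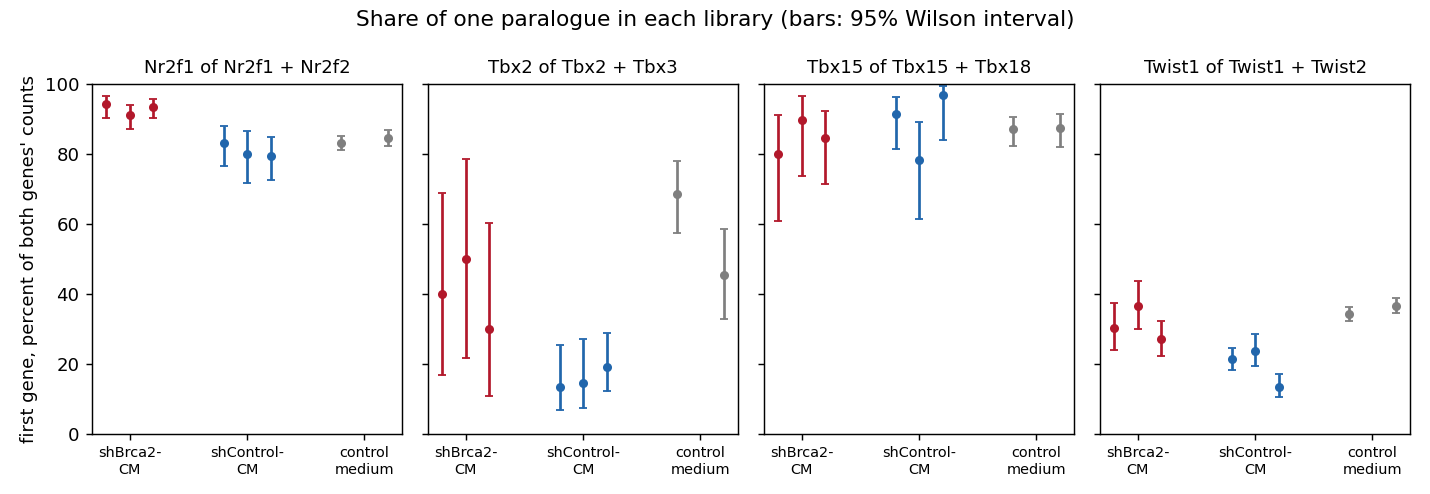
Share of the named gene in the summed counts of a paralogue pair, in percent, for each library, with 1 panel a pair and 95% Wilson intervals as bars. Nr2f1 takes 91.0% to 94.1% of its pair with shBrca2-CM and 79.3% to 84.5% in the other 5 libraries, and Tbx2 takes at most 19.0% of its pair with shControl-CM.

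Prrx1 varied widely among the shControl-CM libraries. It stood at 46.3, 56.0 and 50.6 CPM with shBrca2-CM, at 98.7, 41.6 and 40.8 with shControl-CM and at 41.7 and 41.7 with control medium. Only the shBrca2-CM and control medium libraries did not overlap, at a log2 fold change of 0.29 (SE 0.19). The other differences, -0.24 (SE 0.32) between the conditioned media and 0.55 (SE 0.34) for shControl-CM against control medium, rested on the first shControl-CM library. Without it they were 0.31 and -0.021, and without the third shControl-CM library the second was 0.80 and past the thresholds.

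The order of the members by their 3′ end counts was also compared, with no division by gene length, since such reads come from transcript ends. With shBrca2-CM the mean level fell from Nr2f1 at 286 CPM ± 29.4 (SD, n = 3) to Twist2 at 175 ± 27.3, Twist1 at 78.4 ± 4.85, Prrx1 at 51.0 ± 4.86, Tbx15 at 31.7 ± 2.47 and Nr2f2 at 22.1 ± 6.71. Libraries of neighbours in this order did not overlap except for Tbx15 and Nr2f2. Tbx3, Tbx18 and Tbx2 followed below 10 CPM and overlapped one another. With shControl-CM Twist2 came first at 280 ± 49.7 and Nr2f1 second at 87.9 ± 2.99, and from Nr2f1 to Nr2f2 each gene overlapped its neighbour. With control medium the order was Twist2 at 234 ± 2.38 (n = 2), Nr2f1 at 185 ± 0.951, Twist1 at 128 ± 10.7, Prrx1 at 41.7 ± 0.0052, Tbx15 at 37.5 ± 2.54 and Nr2f2 at 35.7 ± 2.80, where the last 2 overlapped. None of the 50-base stretches in the last 600 bases of the GENCODE transcripts of the members occurred in transcripts of another gene on the same strand. Whether strand was used in counting is not given in the sources used here, and Nr2f1 and Nr2f2 each overlap an antisense RNA with counts of its own (A830082K12Rik, 105 counts, and B130024G19Rik, 241 counts over the 8 libraries).

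A gene was counted as called where its mean normalized count exceeded 5, its log2 fold change exceeded 0.5 in size and its Benjamini-Hochberg adjusted p was under 0.1. All 9 members passed the filter of 10 counts in each comparison. Between shBrca2-CM and shControl-CM 1 member was called higher (Nr2f1) and 2 lower (Tbx3, Twist2), and 3 did not overlap. Among all genes tested, 1.58% were called higher, 1.55% lower and 19.8% did not overlap. The even split of 174 higher and 171 lower held on the TMM scale, and with scaling by total counts it was 250 and 120. For shControl-CM against control medium 1 member was called higher (Tbx3) and 3 lower (Nr2f1, Nr2f2, Twist1), and 6 did not overlap, where 18.2% of all genes were called higher, 18.9% lower and 59.9% did not overlap. The 2200 higher and 2288 lower genes behind these shares were 1798 and 2671 with scaling by total counts. For shBrca2-CM against control medium 1 was called higher (Nr2f1) and 2 lower (Nr2f2, Twist1), and 6 did not overlap, where 18.6% of all genes were called higher, 19.2% lower and 57.4% did not overlap. Since the members were chosen with these values in view, nothing is read from the counts. The median log2 fold change over the 9 members was 0.095, -0.52 and -0.23 in these comparisons, beside 0.029, -0.096 and -0.054 over all genes. Both comparisons with control medium share the same 2 control libraries.

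**Figure D3:**
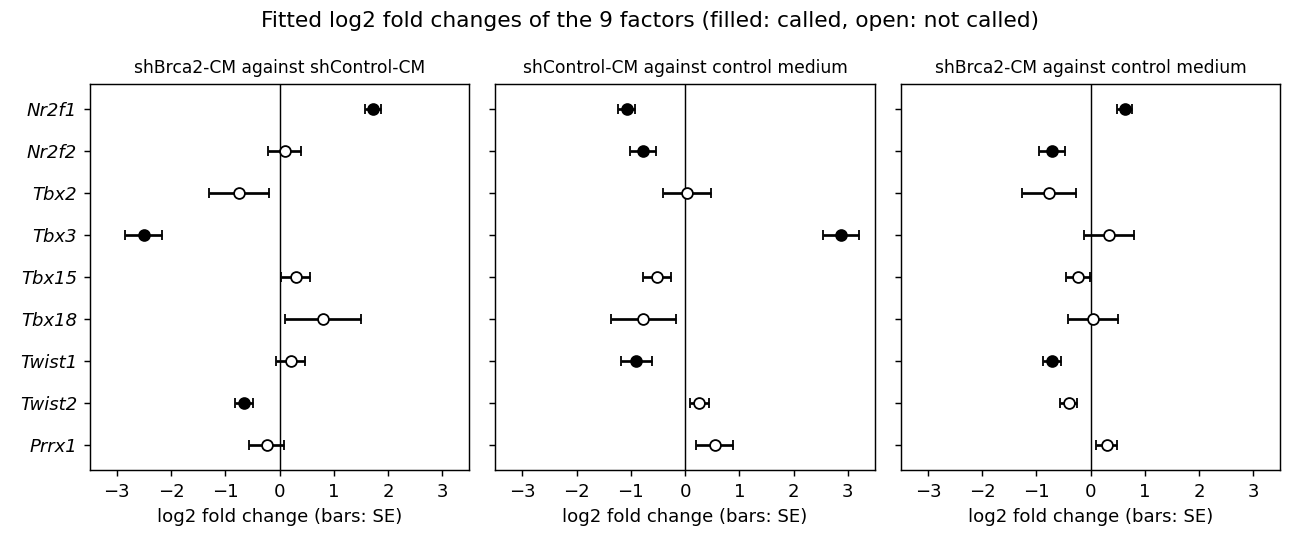
Fitted log2 fold change of each of the 9 measured factors in the 3 comparisons, with the standard error as bars. Filled points are called and open points are not. Nr2f1 at 1.72 and Tbx3 at -2.50 lie on opposite sides in the comparison of the conditioned media.

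Relatives and partners of the members, from lists of gene families that hold 127 genes beside the members, were tested in the same fits, and all adjusted p below are from edgeR's quasi-likelihood test over all genes. Between shBrca2-CM and shControl-CM 3 of 74 tested genes were called higher and 2 lower. With shControl-CM against control medium 9 of 82 were called higher and 27 lower (6 and 30 with scaling by total counts), with a median log2 fold change of -0.55, and with shBrca2-CM against control medium 7 of 82 were higher and 23 lower, with a median of -0.26. These counts stand beside the shares of all genes given above. With any single library left out, 3 of the 5 calls between conditioned media, 10 of the 36 calls of shControl-CM and 24 of the 30 calls of shBrca2-CM against control medium were made in every fit.

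The odd-skipped related factors, zinc finger regulators of intermediate and limb mesenchyme, were 2 of the 3 listed factors raised with shBrca2-CM over shControl-CM. Osr2 stood at 27.5, 44.8 and 53.3 CPM with shBrca2-CM, at 4.48, 2.90 and 2.04 with shControl-CM and at 85.5 and 92.6 with control medium. It was 13.1-fold higher with shBrca2-CM than with shControl-CM (log2 fold change 3.71, SE 0.40, adjusted p = 0.0003383), and lower than control medium in both (-4.79, adjusted p = 3.838e-06, and -1.04, adjusted p = 9.666e-06). Osr1 stood at 139, 215 and 162 CPM with shBrca2-CM, at 85.9, 95.7 and 109 with shControl-CM and at 387 and 340 with control medium. Its log2 fold change was 0.86 (SE 0.18, adjusted p = 0.02638) between the conditioned media, and the call was lost without the second (0.67) or the third (0.91) shBrca2-CM library or the second shControl-CM library (0.83). The Osr1 level was also below control medium in both (-1.92, adjusted p = 3.692e-05, and -1.08, adjusted p = 3.003e-08). Hic1, a zinc finger repressor that marks mesenchymal progenitors, was called at 1.97 (adjusted p = 0.0995), a call lost without any of the 3 shBrca2-CM libraries (1.74 to 2.14) or the second shControl-CM library (1.57).

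Of the E protein partners of Twist factors and the Id inhibitors, 1 of 6 tested genes was called lower between the conditioned media. Id3 stood at 165, 172 and 144 CPM with shBrca2-CM, at 283, 273 and 294 with shControl-CM and at 1246 and 923 with control medium. The 3 groups did not overlap, and Id3 fell by 0.80 (SE 0.13, adjusted p = 0.006539) between the conditioned media on the log2 scale. Against control medium all of Id1, Id2 and Id3 fell with both: at log2 fold changes of -1.24, -3.36 and -1.94 with shControl-CM (adjusted p = 0.001612, 3.025e-05 and 3.692e-05) and of -1.51, -2.97 and -2.76 with shBrca2-CM (adjusted p = 3.271e-10, 2.129e-18 and 8.312e-24). These 6 differences were called with any library left out. Tcf4, an E protein, rose by 2.10 with shBrca2-CM (adjusted p = 4.379e-07) and by 1.29 with shControl-CM (adjusted p = 0.03629), the latter not called without the first shControl-CM library (0.83) or the first (1.17) or second (1.40) control medium library. The E protein Tcf12 was called lower with shControl-CM only (-1.32, adjusted p = 0.05536, not called without the second shControl-CM library or either control library), where the third library stood at 4.75 CPM against 32.7 and 28.0. Whether that difference was particular to shControl-CM was not shown, since between the conditioned media Tcf12 was not called (0.88, adjusted p = 0.4966).

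**Figure D4:**
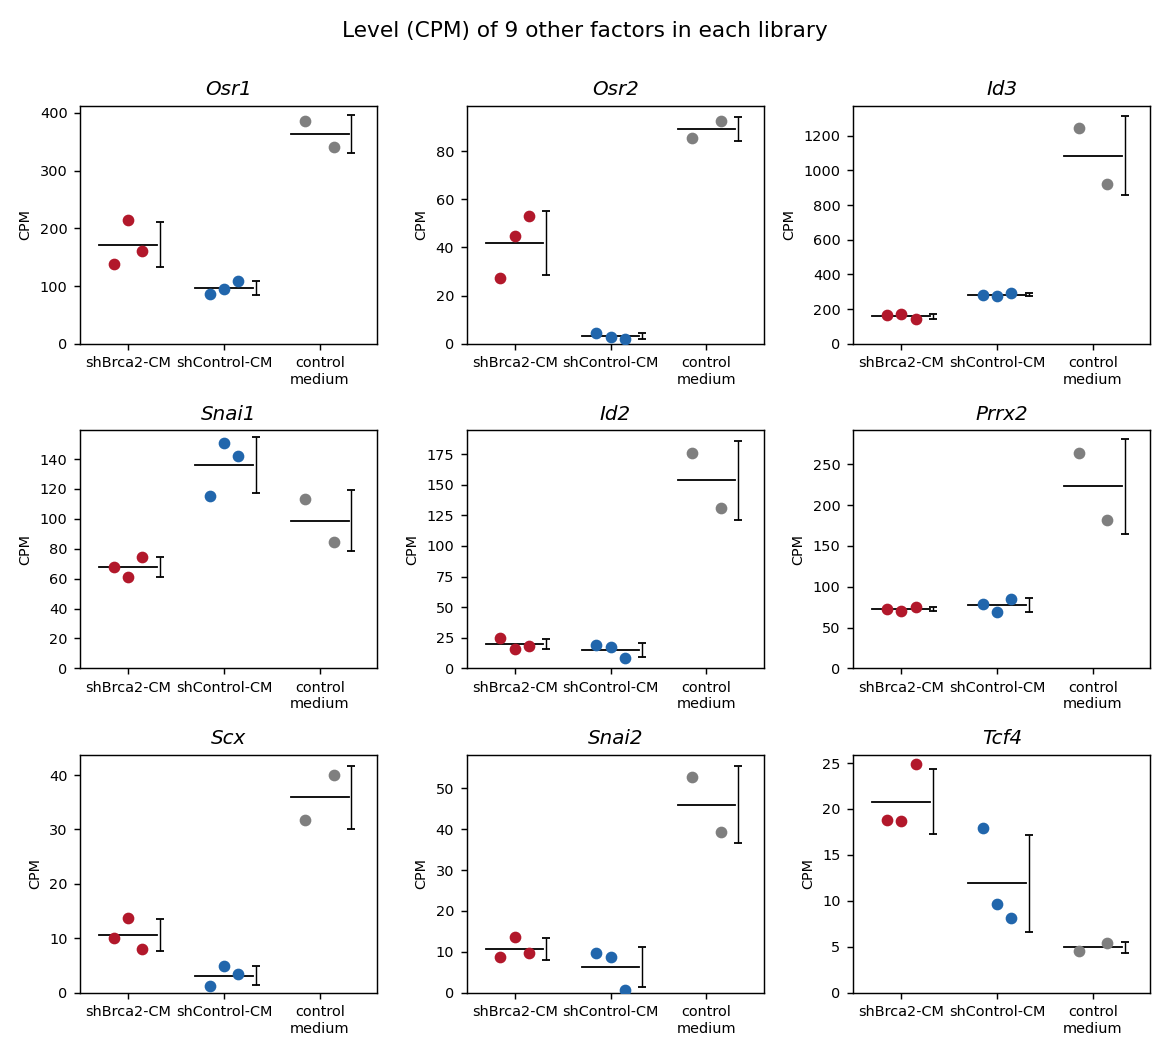
Level of 9 relatives and partners in each library, in CPM on a linear axis from 0, with points for libraries, lines for group means and bars for the SD. Osr1 and Osr2 lie higher with shBrca2-CM than with shControl-CM and Id3 and Snai1 lower, while Id2, Prrx2, Scx and Snai2 lie below control medium with both conditioned media.

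Of the remaining bHLH and paired-related homeobox relatives, those called were lower with conditioned medium than with control medium. Scx, a bHLH factor of tendon progenitors, stood at 10.1, 13.7 and 7.99 CPM with shBrca2-CM, at 1.28, 4.83 and 3.40 with shControl-CM and at 31.8 and 40.0 with control medium. It fell by 3.58 with shControl-CM (SE 0.40, adjusted p = 0.0001802) and by 1.78 with shBrca2-CM (SE 0.29, adjusted p = 6.676e-07), and the conditioned media did not overlap but were not called apart (1.79, adjusted p = 0.1361). Prrx2, the paralogue of Prrx1, stood at 68.6 to 85.6 CPM in all 6 conditioned medium libraries and at 264 and 182 with control medium, and fell by 1.52 (adjusted p = 0.0004112) and by 1.62 (adjusted p = 4.002e-12). The homeobox factor Shox2 fell by 1.49 with shControl-CM (adjusted p = 0.005436), and was at -0.42 with shBrca2-CM (adjusted p = 0.05325). Between the conditioned media its libraries did not overlap, and the log2 fold change of 1.10 was not called by edgeR (adjusted p = 0.1092) but was called by DESeq2. Alx1 was called at -1.73 with shControl-CM (adjusted p = 0.08781) on 0 to 4 counts in its libraries, a call made in 1 of 5 fits with a library left out (-3.25 to -1.31).

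Among the 4 measured factors of epithelial-mesenchymal transition beside Twist, Snai1 fell with shBrca2-CM. This zinc finger repressor stood at 68.0, 61.0 and 74.6 CPM with shBrca2-CM, at 115, 151 and 142 with shControl-CM and at 113 and 84.3 with control medium. The log2 fold change was -0.97 (SE 0.17, adjusted p = 0.00908) between the conditioned media and -0.53 (adjusted p = 0.01087) against control medium, the latter not called without the second shBrca2-CM (-0.46) or the first control medium library (-0.30). Snai2 fell by 2.89 with shControl-CM (adjusted p = 0.002106) and by 2.10 with shBrca2-CM (adjusted p = 4.351e-09) against control medium. Zeb1 was called higher with shBrca2-CM than with control medium (0.69, adjusted p = 0.06131), but not without the first (0.58) or second (0.64) shBrca2-CM or the first control library (0.49), and Zeb2 was not called (0.26, adjusted p = 0.6122).

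Of 6 nuclear receptor relatives tested with shControl-CM against control medium, 3 were called higher and 0 lower, where 18.2% of all genes were called higher. The 3 not called had negative log2 fold changes. Against control medium with shControl-CM, Nr2f6 was at 0.60 (adjusted p = 0.03362), Rxra at 0.59 (adjusted p = 0.01461), Rxrb at 0.74 (adjusted p = 0.01221) and Tbx6, the only further T-box gene in the table, at 1.48 (adjusted p = 0.01493). Each of these was lost without at least 1 control medium library. With shBrca2-CM Rxrb was called at 0.94 (adjusted p = 1.198e-06), with any library left out. None of the 5 tested relatives of Nr2f1 was called between the conditioned media by edgeR or DESeq2, and 0 had an unadjusted p under 0.05 by edgeR. Nr2f6 was at -0.36 (adjusted p = 0.3797).

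Of the other patterning factors, 32 were in the table beside the families above. With shControl-CM against control medium 4 of 32 were called higher and 8 lower, where 18.2% of all genes were called higher and 18.9% lower. With shBrca2-CM 3 of 32 were called higher and 8 lower, where these shares of all genes were 18.6% and 19.2%. With shControl-CM Hic1 was lower (-2.12, adjusted p = 0.009882), beside Osr1 and Osr2, and the highest were Mkx (2.21, adjusted p = 0.04217), Zfpm2 (1.22, adjusted p = 0.01723), Gli3 (0.88, adjusted p = 0.0802) and Msx1 (0.81, adjusted p = 0.03083). The calls of these 5 genes, from Hic1 to Msx1, were each lost without at least 1 library. With shBrca2-CM the 3 listed forkhead factors with the largest falls were Foxf2 at -1.63 (adjusted p = 7.417e-06), Foxf1 at -1.33 (adjusted p = 0.0003326) and Foxs1 at -1.17 (adjusted p = 5.499e-05), and the zinc finger factor Gata6 was also lower at -1.45 (adjusted p = 0.0004194). These 4 were called with any library left out. With shControl-CM Foxf1 was at -1.06 (adjusted p = 0.03564), Foxf2 at -1.11 (adjusted p = 0.0947), each called in 2 of 5 fits with a library left out, and Gata6, at 10.1 against 19.8 CPM, was not called (adjusted p = 0.2622). None of these 3 was called between the conditioned media by edgeR or DESeq2 (-0.25, -0.51 and -0.45, lowest adjusted p = 0.7603). Zfpm2 (0.89, adjusted p = 0.03158), Sox9 (0.77, adjusted p = 0.01768) and Msx1 (0.75, adjusted p = 0.004329) were higher with shBrca2-CM than with control medium, of which Msx1 was called with any library left out.

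**Figure D5:**
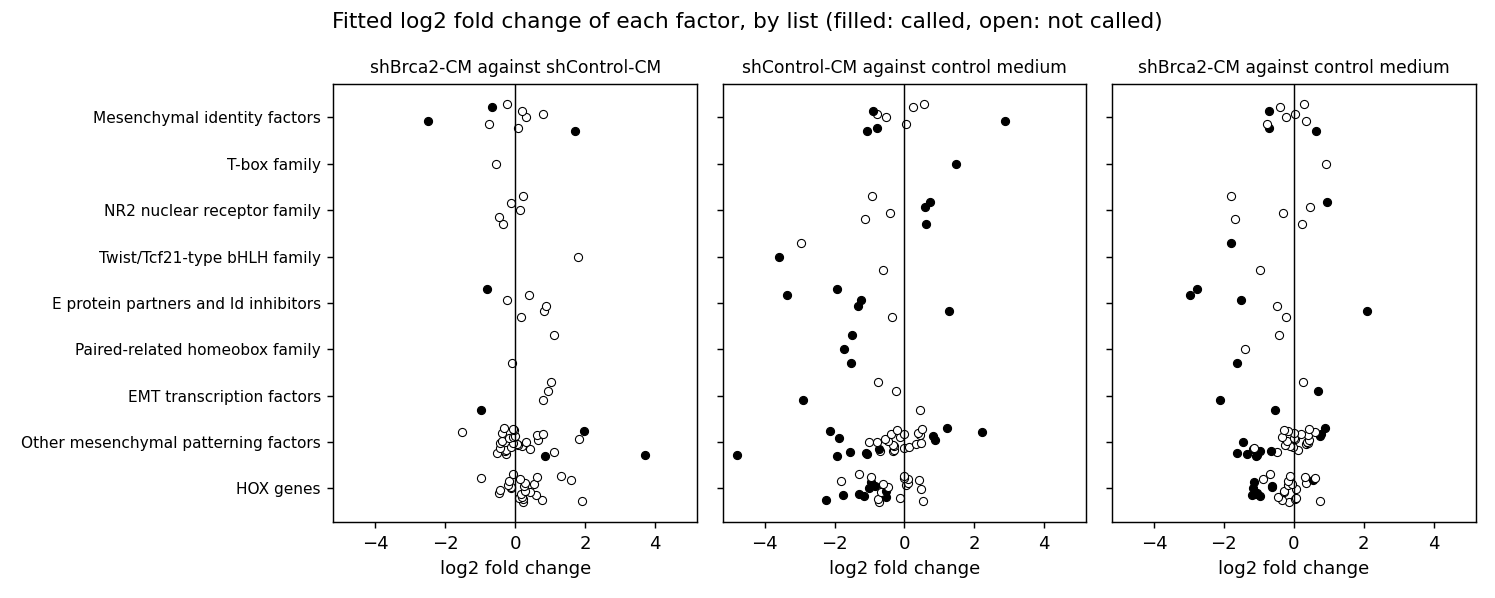
Fitted log2 fold change of each tested factor by list in the 3 comparisons, with filled points for called genes and open points for the others. Genes at 0 in a whole group with no usable error are left out. With shControl-CM against control medium 27 called relatives and partners lie below 0 and 9 above.

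Likeness to a member was taken as Pearson's r of log2 CPM over the 8 libraries, which fall in 3 groups and share those groups, so that r mostly follows the group means. Among 10336 genes, Synpo (0.99) and H19 (0.98) were most like Nr2f1, and among 79 listed factors Hoxa3 (0.83) and Osr2 (0.82). Arnt and Ccne1 (both 0.99) were most like Tbx3, with Nr2f6 (0.87) and Hoxb5 (0.78) among listed factors. For Twist1 these were Hprt and Topors (both 0.99), with Hoxb8 (0.98) and Snai2 (0.97), and for Twist2 Asf1b (0.97) and Taf1 (0.95), with Hoxc10 (0.83) and Snai1 (0.78). For Nr2f2 they were Rhobtb1 (0.99) and Adam12 (0.98), with Hoxc6 (0.89) and Osr1 (0.85), for Tbx15 Zbtb11 (0.99) and Atxn7l1 (0.98), with Hoxa10 (0.94) and Foxc1 (0.92), and for Prrx1 Nsun4 and Ficd (both 0.91), with En1 (0.63) and Runx1 (0.59). For the sparse Tbx2 they were Cdk2 (0.92) and Plxna1 (0.91), with Mkx (0.72) and Meis1 (0.65), and for Tbx18 Tctn2 and Apc2 (both 0.96), with Hoxa4 (0.93) and Hoxa5 (0.81). Among the members, Nr2f1 ran against Tbx3 (-0.88) and Twist2 (-0.86), and Twist1 ran with Tbx15 (0.86).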

How the data were processed

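Immortalized mouse PSCs of 3 groups (8 samples) were profiled by MARS-seq, a 3′ end protocol, on an Illumina NextSeq instrument. The values deposited by the authors are whole-number read counts of 12160 genes, not normalized, with a column for each sample. The submitters' processing notes list bcl2fastq, cutadapt, STAR (2.4.2a), HTSeq, DESeq2 and the build mm10. A further 1 per-sample column, headed as another DMEM replicate, matched no sample and was left out, so control medium has 2 samples. Samples were grouped by title and recorded treatment.

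For each pair of groups, genes reaching 10 counts in sum across its samples were tested with edgeR's quasi-likelihood test (edgeR 4.0.16, R 4.3.3, TMM normalization, Benjamini-Hochberg adjustment). A gene was called where the mean normalized count exceeded 5, the log2 fold change exceeded 0.5 in size and the adjusted p was under 0.1. These limits are those of the study's methods, which used DESeq2's likelihood ratio test. Standard errors were taken from the fold change and its F statistic. The procedure was tested on simulated data with known fold changes. The members and gene lists were chosen with earlier results of these data known. Named were all members, listed genes called in at least 1 comparison (for lists with more than 8 such genes, the 4 largest changes each way in each comparison), a fixed set of close relatives, and the 2 genes most like each member among all genes and among the lists. Of the genes this rule takes, 1 is not reported here. Likeness used log2 CPM with a prior count of 2. Promoter windows and coordinates are from RefSeq (GRCm38.p6), and transcript ends from GENCODE.

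Alternatives were DESeq2 (1.42.0), DESeq2's size factors, total counts, filters of 1 and 50 counts, thresholds of 0.05 and 1, all groups in a single fit, a replicate block, thinning to 655996 counts, and each library left out.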

Additional observations from a re-analysis of the deposited data

How the results depend on the processing

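Of the members' fold changes under these alternatives, 347 kept their direction and call status, 7 gained and 17 lost a call with the same direction, and 14 changed sign, each of these 14 with a main value that was not called. Between the conditioned media the log2 fold change over the alternatives ran from 1.68 to 1.84 for Nr2f1 and from -2.70 to -2.22 for Tbx3. With single libraries left out, values that changed sign ran from -0.17 to 0.26 for Nr2f2, from -0.49 to 0.31 for Prrx1 and from -0.11 to 0.46 for Twist1 between the conditioned media, from -0.41 to 0.52 for Tbx2 and from -0.021 to 0.80 for Prrx1 with shControl-CM against control medium, and from -0.11 to 0.26 for Tbx18 with shBrca2-CM against control medium. Tbx2 with shControl-CM was at -0.094 with total counts and -0.33 after thinning. Twist2 lost its call between the conditioned media with total counts (-0.54). The cause was not tested.

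At an adjusted p of 0.05 and a log2 fold change over 1, 130 genes and 1 relative (Osr2) were called between the conditioned media (345 and 5 at the main thresholds), 2375 genes, 2 members and 20 relatives for shControl-CM (4488, 4 and 36), and 2185 genes, 0 members and 18 relatives for shBrca2-CM against control medium (4555, 3 and 30). Thinning left 2922 genes and 22 relatives for shControl-CM against control medium. Leaving out single libraries gave 128 to 976 genes and 3 to 13 relatives between the conditioned media, the highest without the first shControl-CM library and the lowest without the second shBrca2-CM library. For shControl-CM against control medium it gave 1901 to 5157 genes, 2 to 5 members and 14 to 51 relatives, the lowest without the first control medium library and the highest without the first shControl-CM library.

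After removal of group means, the correlations of same-numbered libraries ran from -0.048 to 0.145. Those of differently numbered libraries ran from -0.197 to 0.204. With 2 or 3 libraries a group, these values cannot settle whether replicate numbers pair the samples. With the number as a replicate block, 311, 4512 and 3850 genes and 3, 5 and 3 members were called in the 3 comparisons. Prrx1 (0.72, shControl-CM) and Twist2 (-0.53, shBrca2-CM) gained and Nr2f2 (-0.53, shBrca2-CM) lost a call against control medium. Tbx2 was at -0.41 with shControl-CM and Tbx18 at -0.029 with shBrca2-CM, both against control medium. Depth limits Tbx2, Tbx3 and Tbx18 most, with 1 to 16 counts in the conditioned medium libraries where each is low.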

Other observations

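HOX genes, which record the position of a cell along the body axis, were the largest family of patterning factors beside the members, with 27 of 39 in the table. Between shBrca2-CM and shControl-CM none of the 25 tested was called by edgeR or DESeq2, and 1 had an unadjusted p under 0.05 by edgeR. With shControl-CM against control medium 10 of 27 were called lower and 0 higher, and with shBrca2-CM 8 were lower and 1 higher, beside 18.9% and 19.2% of all genes called lower. DESeq2 called 7 and 8 HOX genes in these comparisons, and with any library left out edgeR kept 1 of the 10 and 7 of the 9 calls in every fit. Hoxb6 stood at 56.4, 47.3 and 51.5 CPM with shBrca2-CM, at 55.1, 62.8 and 55.0 with shControl-CM and at 120 and 111 with control medium. It fell by 1.01 with shControl-CM (adjusted p = 0.001765) and by 1.16 with shBrca2-CM (adjusted p = 1.609e-07), and both calls were made with any library left out.

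The other HOX genes with the largest falls with shControl-CM were Hoxa3 (-2.23, adjusted p = 0.01442), Hoxa10 (-1.77, adjusted p = 0.01647), Hoxa11 (-1.31, adjusted p = 0.01165) and Hoxa9 (-1.15, adjusted p = 0.07615), each lost without 1 or both control medium libraries. With shBrca2-CM, Hoxa10 (-1.21, adjusted p = 1.721e-05), Hoxc6 (-1.15, adjusted p = 2.66e-05) and Hoxa11 (-1.12, adjusted p = 0.00173) were called with any library left out. Hoxc9 was called higher (0.56, adjusted p = 0.05266), but not without the third shBrca2-CM (0.32) or the second control medium library (0.39).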
